A study of Mus musculus with 6 samples.

Results

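A set of 9 genes of lipid handling, out of 35853 genes with values, was followed in blood neutrophils of tumour-bearing mice: the sterol exporters Abca1 and Abcg1, the lipid uptake genes Cd36, Slc27a2 and Slc27a4, the triglyceride synthases Dgat1 and Dgat2, the lipid droplet coat gene Plin2 and the lipase gene Pnpla2. They were chosen by name and by their measured expression and fold changes between these same groups, so their values here are a description and no test is read from them. The neutrophils came from blood of BALB/C mice, wild type by the labels, 4 weeks after 4T1 cells, a mouse mammary carcinoma line, had been placed orthotopically, and every library shares this tumour. The sort took Ly6G+ cells, Ly6G being a neutrophil surface protein in mice, and split them by surface Ly6C. Each side of the split, Ly6C-high and Ly6C-low, gave 3 mRNA libraries. No library from a mouse without a tumour was analysed here. Whether replicates came from separate or pooled mice is not stated, so every p-value measures the spread between libraries and no more, and that spread may be technical.

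Sterols leave a cell mainly through a pair of membrane transporters, ABCA1, which loads lipid-poor apolipoprotein, and ABCG1, which loads high-density lipoprotein, and the liver X receptors switch both genes on when oxysterols accumulate. Fatty acids that enter a cell are activated with coenzyme A and either burned or joined to glycerol, with the DGAT enzymes making the last bond of a triglyceride. The triglyceride is stored in droplets coated by perilipins and is released again by a lipase cascade that adipose triglyceride lipase, the product of Pnpla2, begins. Neutrophils hold such droplets, and in tumour-bearing mice fatty acid uptake through FATP2, the product of Slc27a2, has been linked to suppressive neutrophils.

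The promoters of Abca1, Pnpla2 and Slc27a4 are shown because Abca1 is a textbook target of the liver X receptors, and because Pnpla2 and Slc27a4 had fold changes of opposite sign, although neither passed the test across genes. Each line gives the 250 bases before the RefSeq start on the gene's own strand, from RefSeq on build GRCm38.p6, and capitals mark every match to the letters searched.
Abca1, chr4:53159896-53160145, minus strand: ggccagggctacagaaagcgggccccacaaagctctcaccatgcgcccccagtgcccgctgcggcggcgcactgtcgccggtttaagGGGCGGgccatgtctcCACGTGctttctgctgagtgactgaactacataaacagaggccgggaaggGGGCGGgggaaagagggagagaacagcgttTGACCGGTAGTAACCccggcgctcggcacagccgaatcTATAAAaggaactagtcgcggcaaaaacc
Pnpla2, chr7:141454938-141455187, plus strand: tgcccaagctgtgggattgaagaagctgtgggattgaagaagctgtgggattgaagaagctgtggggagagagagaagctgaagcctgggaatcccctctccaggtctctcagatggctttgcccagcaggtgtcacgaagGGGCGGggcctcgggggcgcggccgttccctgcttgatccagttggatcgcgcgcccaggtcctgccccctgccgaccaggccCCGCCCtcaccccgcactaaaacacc
Slc27a4, chr2:29802384-29802633, plus strand: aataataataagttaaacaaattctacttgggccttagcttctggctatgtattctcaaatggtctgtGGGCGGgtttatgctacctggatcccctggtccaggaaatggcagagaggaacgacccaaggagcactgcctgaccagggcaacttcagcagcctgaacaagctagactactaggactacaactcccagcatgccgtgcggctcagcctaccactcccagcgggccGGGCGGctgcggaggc

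The letters were searched on both strands, and no match in one of these promoters overlapped another. A direct repeat spaced by 4 bases, the form that liver X receptors bind, was searched as a pair of GGTNA with 5 bases between them and was found in the Abca1 window as TGACCGGTAGTAACC, on the opposite strand, from base -67 to base -53 before the start. Of 32851 promoter windows of the same length 0.621% held this repeat, and of the 6 members with a promoter in the table only Abca1 did. Abca1 also held the E-box CACGTG, present in 6.02% of windows, and TATAAA at base -29, present in 12.4%. The GC box GGGCGG, present in 32.7% of windows, stood in the promoters of Abca1, Cd36, Slc27a2, Slc27a4 and Pnpla2, with 2 matches in each. CCAAT, present in 33.8%, stood in Cd36 and Plin2, and a repeat spaced by 1 base (GGNCA, any base, then AGGNCA), present in 0.694%, in none of the 6. Promoters of Abcg1, Dgat1 and Dgat2 were not analysed here.

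Of the 9 genes, 7 were plainly transcribed in both groups and 2 were close to absent. Levels are compared between genes in the deposited TPM, a share of all transcripts corrected for their length. Plin2 was the most abundant, with 325, 303 and 278 TPM in Ly6C-high replicates 1, 2 and 3 and 390, 348 and 367 TPM in Ly6C-low replicates 1, 2 and 3. Pnpla2 came next at 121 ± 9.75 TPM in Ly6C-high and 169 ± 4.79 TPM in Ly6C-low libraries (SD, n = 3 each), followed by Dgat2 at 107 ± 2.16 TPM in Ly6C-high and 90.2 ± 15.9 TPM in Ly6C-low libraries. The order below them was Slc27a4, Dgat1, Abcg1 and Abca1, with means over the 6 libraries of 56.7, 45.8, 32.8 and 15.7 TPM. Each gene exceeded the next in all 6 libraries, except that Slc27a4 exceeded Dgat1, and Dgat1 exceeded Abcg1, in 5 of 6, so those neighbours were not separated beyond their spread.

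Cd36 and Slc27a2 stood at the detection limit. Cd36, the scavenger receptor for fatty acids and oxidised lipoprotein that macrophages and platelets carry, had 6, 1 and 3 counts in Ly6C-high replicates 1, 2 and 3 and 0, 2 and 1 counts in Ly6C-low replicates 1, 2 and 3. The 0 in Ly6C-low replicate 1 allows up to 0.15 CPM at 3 counts, CPM being counts scaled to library depth. Summed over libraries that is 10 counts in Ly6C-high against 3 in Ly6C-low cells, a depth-corrected ratio of 3.10 whose 95% counting interval, 0.798 to 17.5, includes 1. Slc27a2, the fatty acid transporter and acyl-CoA synthetase named above, had 1, 5 and 6 counts in Ly6C-high and 3, 1 and 5 counts in Ly6C-low replicates 1, 2 and 3. Its ratio was 1.24 (counting interval 0.479 to 3.33), so no difference was detectable at this depth in either gene. Intervals and limits here cover counting error only. Platelet markers summed to between 10.6 and 22.3 CPM in Ly6C-high and between 15.2 and 23.2 CPM in Ly6C-low libraries, and the macrophage complement genes C1qa, C1qb and C1qc had no count in any library.

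**Figure D1:**
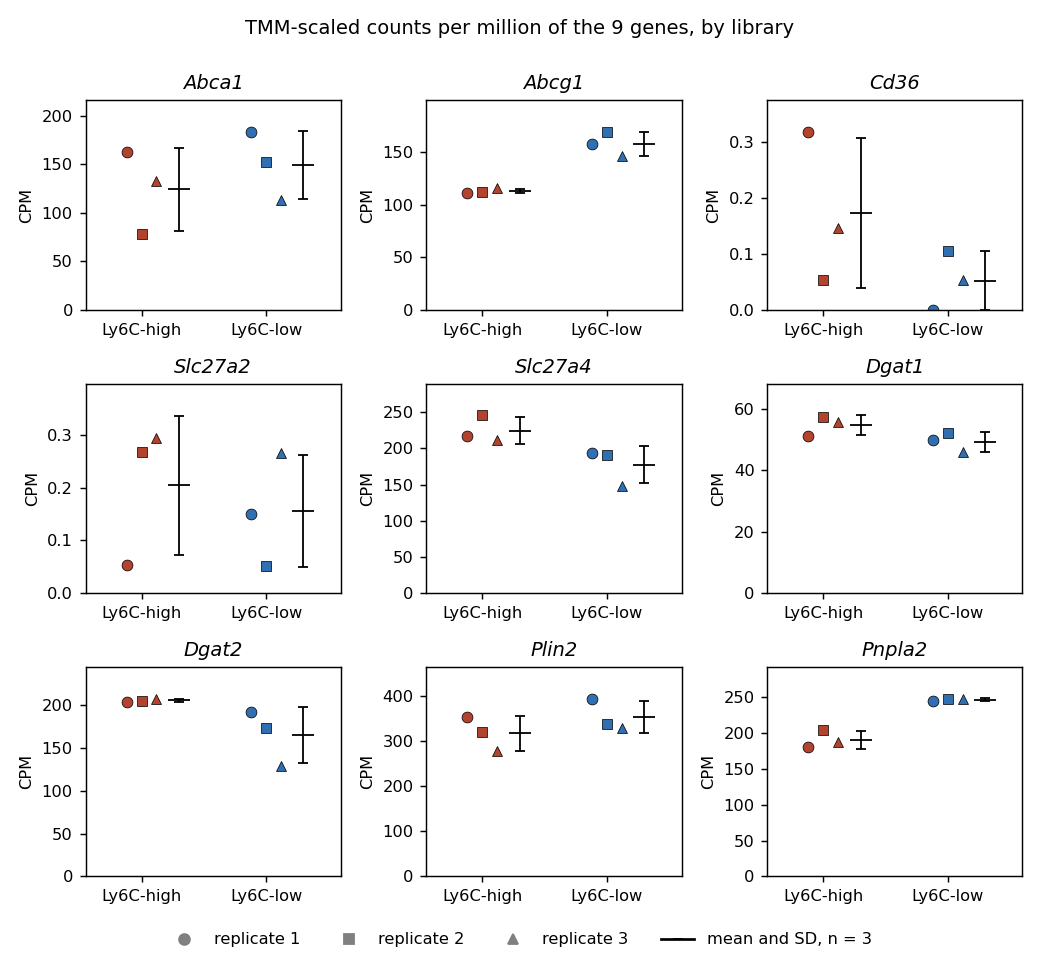
TMM-scaled CPM (vertical axes from 0) of the 9 genes in the 3 Ly6C-high (red, left) and 3 Ly6C-low (blue, right) libraries; marker shapes give the replicate number, bars the mean and SD. Abcg1 and Pnpla2 lay lower in every Ly6C-high library than in any Ly6C-low library, Slc27a4 and Dgat2 lay higher, and Cd36 and Slc27a2 stayed at 6 counts or fewer.

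Between the groups, the exporter Abcg1 and the lipase Pnpla2 lay lower in Ly6C-high cells, and the transporter Slc27a4 and the synthase Dgat2 lay higher. In these 4 of the 7 fitted genes the groups did not overlap in CPM, scaled by the trimmed mean of M-values (TMM): 2 with Ly6C-high below and 2 above. Over all 11406 genes tested 21.1% did not overlap, 10.9% with Ly6C-high below and 10.3% with it above. Nothing is read from the members' count, because they were chosen with this comparison known. With edgeR's quasi-likelihood test 0 of the 7 passed an adjusted p of 0.05, a threshold that 4 genes (0.0351%) passed in all, and 4 members had an unadjusted p under 0.05, 2 higher and 2 lower, as did 14.3% of all genes (6.92% higher and 7.34% lower). DESeq2 called 2 members, Abcg1 and Pnpla2 (1.1% of all genes), and limma voom called 0 (0.0263%). Scaling by library size alone called 1, Abcg1 (0.0701%), and leaving out the filter on low counts called 2, Abcg1 and Pnpla2 (2.13%). Their median log2 fold change was -0.15, with a range from -0.48 to 0.34, where all genes tested had a median of 0.00. In bulk RNA, fewer cells that express a gene and less of its RNA per cell cannot be told apart.

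Abcg1, on chromosome 17, measured 111, 113 and 116 CPM in Ly6C-high replicates 1, 2 and 3, against 158, 169 and 146 CPM in Ly6C-low replicates 1, 2 and 3. The Ly6C-high libraries lay within 5 CPM of each other and below all Ly6C-low libraries. The log2 fold change was -0.48 (SE 0.09), a Ly6C-high to Ly6C-low ratio of 0.717. It stayed between -0.53 and -0.43 with any 1 library left out. Without Ly6C-low replicate 3, which stood apart from the other 5 libraries on the first principal component, Abcg1 passed the edgeR threshold, as 22 genes (0.189%) then did. The edgeR adjusted p of Abcg1 was 0.0194 in that fit and 0.142 with all 6 libraries. With any other library left out it lay between 0.151 and 0.568. Nothing is read from that call, because Abcg1 was chosen with this comparison known.

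Abca1, its partner on chromosome 4, did not show this separation. It measured 163, 78.2 and 132 CPM in Ly6C-high replicates 1, 2 and 3, and 183, 153 and 113 CPM in Ly6C-low replicates 1, 2 and 3. The groups overlapped, with Ly6C-high replicate 2 lowest and Ly6C-low replicate 1 highest, and the log2 fold change of -0.27 was smaller than its standard error of 0.32. It was -0.02 without Ly6C-high replicate 2 and -0.51 without Ly6C-high replicate 1. It was -0.10 without Ly6C-low replicate 1 and -0.43 without Ly6C-low replicate 3. The pooled SD within groups was 0.457 on the log2 CPM scale, the widest of the 7 genes, where that of Abcg1 was 0.076. Within a library the TPM of Abcg1 was 1.57, 2.75 and 1.84 times that of Abca1 in Ly6C-high replicates 1, 2 and 3 and 1.98, 2.43 and 2.21 times in Ly6C-low replicates 1, 2 and 3. These ratios overlapped.

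Slc27a4, on chromosome 2, encodes FATP4, a fatty acid transport protein and acyl-CoA synthetase. It measured 217, 246 and 212 CPM in Ly6C-high replicates 1, 2 and 3, against 194, 190.5 and 148 CPM in Ly6C-low replicates 1, 2 and 3. All Ly6C-high libraries were above all Ly6C-low libraries, and the log2 fold change was 0.34 (SE 0.12). It was 0.22 without Ly6C-low replicate 3, the lowest library, and between 0.27 and 0.40 without any other. None of Slc27a1, Slc27a3, Slc27a5 and Slc27a6, the other transporter genes of this family besides Slc27a2, passed the filter on low counts. Slc27a4 stood at 61.9 ± 5.20 TPM in Ly6C-high and 51.4 ± 6.46 TPM in Ly6C-low libraries (SD, n = 3 each), and the highest group mean among the others was 0.294 TPM, of Slc27a3 in Ly6C-low libraries.

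The triglyceride synthases are 2 unrelated enzymes for the same bond. Dgat2, on chromosome 7, measured 203, 205 and 207 CPM in Ly6C-high replicates 1, 2 and 3, against 192, 173 and 129 CPM in Ly6C-low replicates 1, 2 and 3. The Ly6C-high libraries were nearly equal, while the Ly6C-low libraries were spread out below them with replicate 3 lowest. The log2 fold change was 0.32 (SE 0.13), but 0.17 without Ly6C-low replicate 3 and 0.44 without Ly6C-low replicate 1. Dgat1, on chromosome 15, was lower and flatter, at 51.1, 57.2 and 55.6 CPM in Ly6C-high and 49.8, 52.0 and 45.8 CPM in Ly6C-low replicates 1, 2 and 3. Its groups overlapped, and its log2 fold change was 0.15 (SE 0.09). Within a library Dgat2 stood at 2.33 ± 0.429 times the TPM of Dgat1 in Ly6C-high and 2.05 ± 0.517 times in Ly6C-low libraries (SD, n = 3 each), which overlapped.

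Plin2, on chromosome 4, encodes the perilipin that coats droplets in most cells outside fat. It measured 354, 322 and 277 CPM in Ly6C-high replicates 1, 2 and 3, against 395, 338 and 329 CPM in Ly6C-low replicates 1, 2 and 3. In CPM the groups overlapped, and the log2 fold change was -0.15 (SE 0.11). It was -0.07 without Ly6C-high replicate 3 and also without Ly6C-low replicate 1. In the deposited TPM given above, which lack the TMM scaling, all Ly6C-high libraries were below all Ly6C-low libraries, so the separation of Plin2 depended on the scale.

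Pnpla2, on chromosome 7, measured 180 CPM, 204 CPM and 187 CPM in Ly6C-high replicates 1, 2 and 3, against 244, 247 and 247 CPM in Ly6C-low replicates 1, 2 and 3. The Ly6C-low libraries were almost identical and all lay above the Ly6C-high libraries. The log2 fold change was -0.37 (SE 0.09), a Ly6C-high to Ly6C-low ratio of 0.772, and it stayed between -0.43 and -0.33 with any 1 library left out. Set against the synthases in the same library, Pnpla2 had 0.783, 0.828 and 0.746 times the summed TPM of Dgat1 and Dgat2 in Ly6C-high replicates 1, 2 and 3, against 1.14, 1.19 and 1.46 times in Ly6C-low replicates 1, 2 and 3. These ratios did not overlap. They combine genes chosen with their fold changes known, so the separation restates those fold changes and nothing further is read from it. They count every transcript of each gene, including the main Pnpla2 transcript, which is annotated as a target of nonsense-mediated decay. Plin2 stood at 2.51 ± 0.35 times the TPM of Pnpla2 in Ly6C-high and 2.18 ± 0.18 times in Ly6C-low libraries, which overlapped.

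**Figure D2:**
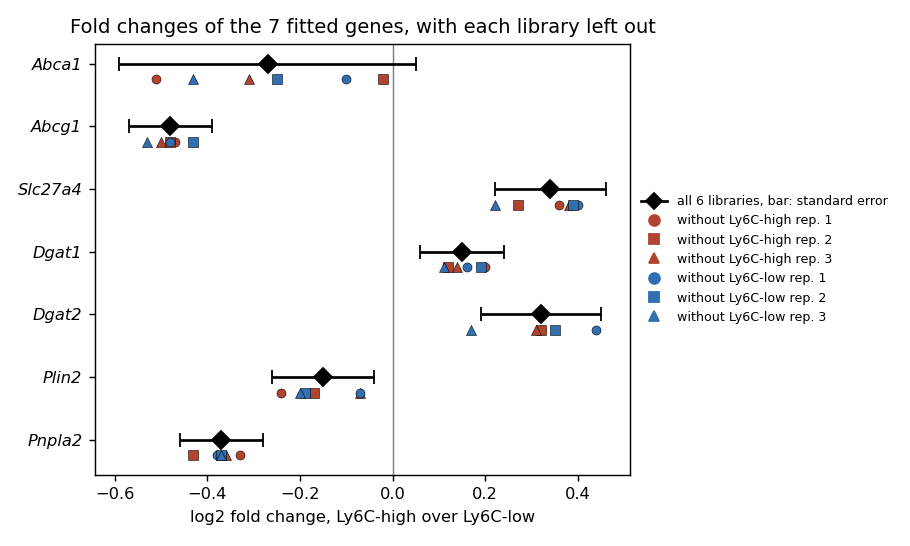
Log2 fold change, Ly6C-high over Ly6C-low (horizontal axis), of the 7 fitted genes; diamonds use all 6 libraries with the standard error as bar, and the points below each diamond leave out 1 library. Points of Pnpla2 stayed between -0.43 and -0.33, those of Abca1 ranged from -0.51 to -0.02, and that of Dgat2 was 0.17 without Ly6C-low replicate 3.

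Markers of other cells lay apart between the groups in some lists. Eosinophil markers, led by Siglecf, summed to between 36.2 and 49.0 CPM in Ly6C-high and between 59.6 and 65.7 CPM in Ly6C-low libraries, the direction of Abcg1 and Pnpla2; 4 of 5 tested markers lay below 0, and none of the 8 was at 0 counts throughout. Basophil and mast cell markers summed to between 1333 and 1630 CPM in Ly6C-high and between 898 and 1309 CPM in Ly6C-low libraries. Nearly all of that was Hdc, which neutrophils also express. Without it the sums leaned the other way but the groups overlapped, between 4.50 and 6.90 CPM in Ly6C-high and between 6.74 and 33.7 CPM in Ly6C-low libraries, with the top in replicate 3. Of the 7 tested markers of that list 6 lay below 0 and 1, Hdc, above, with a median log2 fold change of -1.73. Mcpt8 at -2.82, Cpa3 at -1.73 and Prss34 at -1.60 were lower in Ly6C-high libraries without overlap. Ms4a2, Gata2 and Cd200r3 overlapped. Monocyte and macrophage markers summed to between 365 and 371 CPM in Ly6C-high and between 369 and 450.3 CPM in Ly6C-low libraries. Most of that was Csf1r, at 342 ± 1.5 CPM in Ly6C-high and 388 ± 34.9 CPM in Ly6C-low libraries without overlap (SD, n = 3 each). The sum of the other markers of that list overlapped, between 24.7 and 28.0 CPM in Ly6C-high and between 15.4 and 26.9 CPM in Ly6C-low libraries. Of the 5 tested markers of that list 3 lay above 0 and 2 below, with a median log2 fold change of 0.68. Those above, each without overlap, were Ccr2 at 0.68, F13a1 at 0.79 and Cx3cr1 at 2.46. Cx3cr1 was low, with means of 0.886 CPM in Ly6C-high and 0.155 CPM in Ly6C-low libraries. Those below were Csf1r at -0.18 and Adgre1, which overlapped, at -0.22. The part of these cells in the differences of the lipid genes was not tested. Neutrophil markers summed to between 109153 and 113611 CPM in Ly6C-high and between 93666 and 102767 CPM in Ly6C-low libraries. The epithelial keratins Krt8, Krt18 and Krt14 had no count. The remaining markers, of red cells (led by Hbb-bs), B cells (Cd79a), T and NK cells (Cd3d), platelets (Gp1ba) and epithelium (Cdh1), overlapped between the groups in their sums. Of the 43 markers tested in the 9 marker lists 0 passed with edgeR, but 6 were higher and 7 lower at an unadjusted p under 0.05, a larger share than the 14.3% of all genes. DESeq2 called 1 marker (1.1% of all genes) and voom 0 (0.0263%), whereas 11 were called without the filter on low counts and 2 without Ly6C-low replicate 3. Of the 11406 genes of the main fit, 402 were called without the filter and 20 without that library. The sorted genes Ly6c1 and Ly6c2, 2 of the 4 called genes, were higher in Ly6C-high cells by 3.07 and 2.90 on the log2 scale (edgeR adjusted p of 0.00273 and 0.00382).

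Of the 7 genes, 4 were each other's nearest in pattern over the libraries, within the pairs that share a direction of fold change. Likeness was measured as the root mean square difference of log2 CPM deviations over the 6 libraries, and depth and scaling are shared by all genes of a library. These deviations include the difference between the groups, which was known when the members were chosen. Pairing by direction was therefore largely fixed by that choice, and nothing is read from the pairs or their distances. Abcg1 and Pnpla2 were each other's nearest member at 0.097, where the median distance to 7260 other genes was 0.283 for Abcg1 and 0.238 for Pnpla2. Slc27a4 and Dgat2 were likewise nearest to each other at 0.087, where the medians were 0.245 and 0.26. The other 3 had no such partner: Dgat1 was nearest to Slc27a4 at 0.14, Plin2 to Pnpla2 at 0.19 and Abca1 to Plin2 at 0.35. The most alike gene of all was 2310022B05Rik for Abcg1 at a distance of 0.075, Cbfa2t2 for Pnpla2 at 0.040, L1cam for Slc27a4 at 0.026 and Cmtr1 for Dgat2 at 0.022. It was Mtmr14 for Dgat1 at 0.019, Eif3c for Plin2 at 0.033 and the predicted gene Gm10925 for Abca1 at 0.13. The lowest value of Slc27a4, Dgat1 and Dgat2 lay in Ly6C-low replicate 3, with deviations of -0.42, -0.18 and -0.50, whereas Pnpla2 in that library, at 0.19, matched the other Ly6C-low libraries at 0.18 and 0.19.

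**Figure D3:**
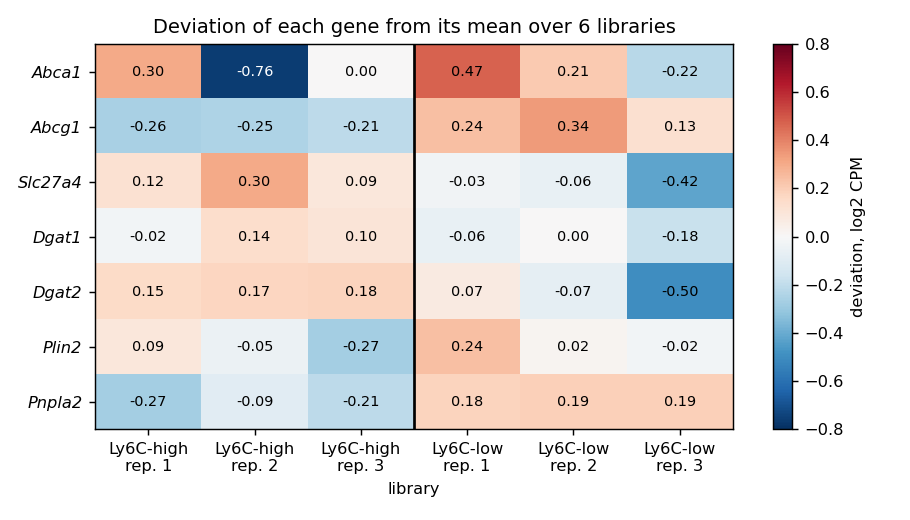
Deviation of the 7 fitted genes (rows) from their own mean over the 6 libraries (columns), in log2 CPM, with Ly6C-high libraries left of the line and Ly6C-low libraries right of it. Abcg1 and Pnpla2 were negative in all Ly6C-high and positive in all Ly6C-low libraries; the deepest values were -0.76 for Abca1 in Ly6C-high replicate 2 and -0.50 for Dgat2 in Ly6C-low replicate 3.

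Most members were carried by 1 main transcript whose share hardly differed between the groups. Transcript shares are estimates, since kallisto divides reads that match several transcripts. Abcg1-201 held 74.9% of the gene's TPM in Ly6C-high and 77.3% in Ly6C-low cells, and the groups did not overlap in it, at 19.5, 20.0 and 20.5 TPM in Ly6C-high against 29.2, 32.2 and 28.7 TPM in Ly6C-low replicates 1, 2 and 3. Abca1-201 held 91.7% in Ly6C-high and 91.3% in Ly6C-low cells, and the main transcripts of Dgat2 and Slc27a4 held at least 96.1% in both groups. Dgat1-201 held 57.7% in Ly6C-high and 58.8% in Ly6C-low cells and Plin2-201 54.1% and 51.6%, the rest being spread over shorter transcripts, several of them annotated as retained introns or without a coding frame.

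The main transcript of Pnpla2, Pnpla2-201 with 71.3% of the gene's TPM in both groups, is annotated in GENCODE M21 as a target of nonsense-mediated decay, the pathway that removes transcripts with an early stop. The groups did not overlap in it, at 81.5, 91.0 and 86.6 TPM in Ly6C-high against 116, 120.1 and 125 TPM in Ly6C-low replicates 1, 2 and 3. They did not overlap either in the shorter coding transcript Pnpla2-206, at 18.6, 23.9 and 21.6 TPM in Ly6C-high against 27.1, 31.5 and 26.6 TPM in Ly6C-low replicates 1, 2 and 3. Pnpla2-203, the longest transcript annotated as coding, overlapped between the groups, at 5.21, 7.37 and 4.81 TPM in Ly6C-high and 5.24, 6.77 and 4.74 TPM in Ly6C-low replicates 1, 2 and 3. Pnpla2-202, a coding transcript of 1799 bases, did not overlap. It stood at 4.38, 4.48 and 5.02 TPM in Ly6C-high against 11.8, 6.52 and 11.3 TPM in Ly6C-low replicates 1, 2 and 3. Plin2-202, annotated without a coding frame, reached 29.7 TPM in Ly6C-low replicate 3 and lay between 6.04 and 11.1 TPM in the other 5 libraries.

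The wider pathways around these genes held small differences of both signs, and none of the 110 genes tested, out of 158 in 9 lists of related lipid pathways, passed with edgeR. Of the 110, 10 were higher and 6 lower at an unadjusted p under 0.05, against 14.3% of all genes, and the groups did not overlap in 26, against 21.1%. Their median log2 fold change was 0.02. DESeq2 called 1, Mylip, and voom 0.

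Beside the exporters, 0 of the 9 tested genes of the sterol efflux and liver X receptor list passed. Mylip, a liver X receptor target that degrades the low-density lipoprotein receptor, measured 22.5, 21.9 and 21.3 CPM in Ly6C-high replicates 1, 2 and 3 against 30.3, 35.4 and 51.8 CPM in Ly6C-low replicates 1, 2 and 3. Its groups did not overlap, in the direction of Abcg1, and the log2 fold change was -0.84 (SE 0.18, edgeR adjusted p 0.172). Without Ly6C-low replicate 3 it was -0.58, and passed with an adjusted p of 0.043, in a range over the alternatives from 6.42e-09 to 0.568. The receptor Nr1h2 was at 69.6 ± 7.78 CPM in Ly6C-high and 74.9 ± 1.41 CPM in Ly6C-low libraries (SD, n = 3 each), whereas Nr1h3 was under the filter at 0.118 and 0.121 CPM. The transporter Abca7 had a log2 fold change of 0.20 (adjusted p 0.461).

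In the list of sterol synthesis and its SREBP control, the feedback that answers low sterol, 0 of 27 tested genes passed, with 5 higher and 1 lower at an unadjusted p under 0.05 and a median of 0.10. Over all genes tested 6.92% were higher and 7.34% lower at that edgeR p. Msmo1, a C4-methyl sterol oxidase, measured 65.0 ± 1.21 CPM in Ly6C-high and 49.5 ± 8.14 CPM in Ly6C-low libraries (log2 fold change 0.39, edgeR adjusted p 0.213). Scap, the escort of the SREBP factors, measured 16.3 ± 1.27 CPM in Ly6C-high and 21.9 ± 1.77 CPM in Ly6C-low libraries (log2 fold change -0.42, adjusted p 0.193). Of 9 tested genes of lysosomal sterol release and esterification 0 passed, with values of 0.36 for Nceh1, a cholesteryl ester hydrolase, and -0.55 for the lipoprotein receptor gene Lrp1.

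Around triglyceride storage the tested genes likewise did not pass: 0 of 11 for fatty acid uptake and activation, 0 of 9 for glycerolipid synthesis, 0 of 11 for droplet coat and assembly and 0 of 5 for lipolysis. The log2 fold changes were 0.35 for the scavenger receptor gene Olr1 and 0.19 for the synthetase gene Acsl4. They were 0.32 for glycerol kinase (Gk) and 0.25 for the acyltransferase gene Gpat3, which begin the route that Dgat2 ends, and in both all Ly6C-high libraries were above all Ly6C-low libraries. Agpat3, of the same list, was low, at 0.779 ± 0.133 CPM in Ly6C-high and 1.51 ± 0.895 CPM in Ly6C-low libraries. Its groups did not overlap, with Ly6C-high below, and its log2 fold change was -0.95 (SE 0.43, edgeR adjusted p 0.343). The perilipin gene Plin3 had a value of 0.27 and the droplet protein gene Aup1 one of -0.27. Abhd5, the co-activator of the Pnpla2 lipase, measured 80.9 ± 2.15 CPM in Ly6C-high and 68.9 ± 4.67 CPM in Ly6C-low libraries (log2 fold change 0.23, edgeR adjusted p 0.282), the other direction from Pnpla2. Mgll, which ends the lipase cascade, measured 12.1 ± 0.339 CPM in Ly6C-high and 8.95 ± 0.353 CPM in Ly6C-low libraries (0.43, adjusted p 0.201). G0s2, an inhibitor of the same lipase, spread widely within both groups, at 105 ± 42.2 CPM in Ly6C-high and 94.0 ± 39.8 CPM in Ly6C-low libraries.

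Of 19 tested genes of fatty acid oxidation and the PPAR axis 0 passed, with 8 above 0, 11 below and a median of -0.03, and with values of -0.30 for Etfb, an electron carrier subunit, and -0.27 for the thiolase gene Acaa2. Of 10 tested genes of fatty acid synthesis and desaturation 0 passed, with 7 above 0, 3 below and a median log2 fold change of 0.05. The 2 genes of smallest p at 5 CPM or more were the desaturase gene Scd2 at -0.27 and the elongase gene Elovl5 at -0.20. Elovl7, an elongase gene of lower expression with a smaller p, was at 1.63 ± 0.669 CPM in Ly6C-high and 0.962 ± 0.241 CPM in Ly6C-low libraries without overlap, with a log2 fold change of 0.76 (SE 0.37). Among the PPAR genes only Ppard passed the filter on low counts, at 67.4 ± 7.54 CPM in Ly6C-high and 68.7 ± 4.22 CPM in Ly6C-low libraries, and Ppara and Pparg did not.

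**Figure D4:**
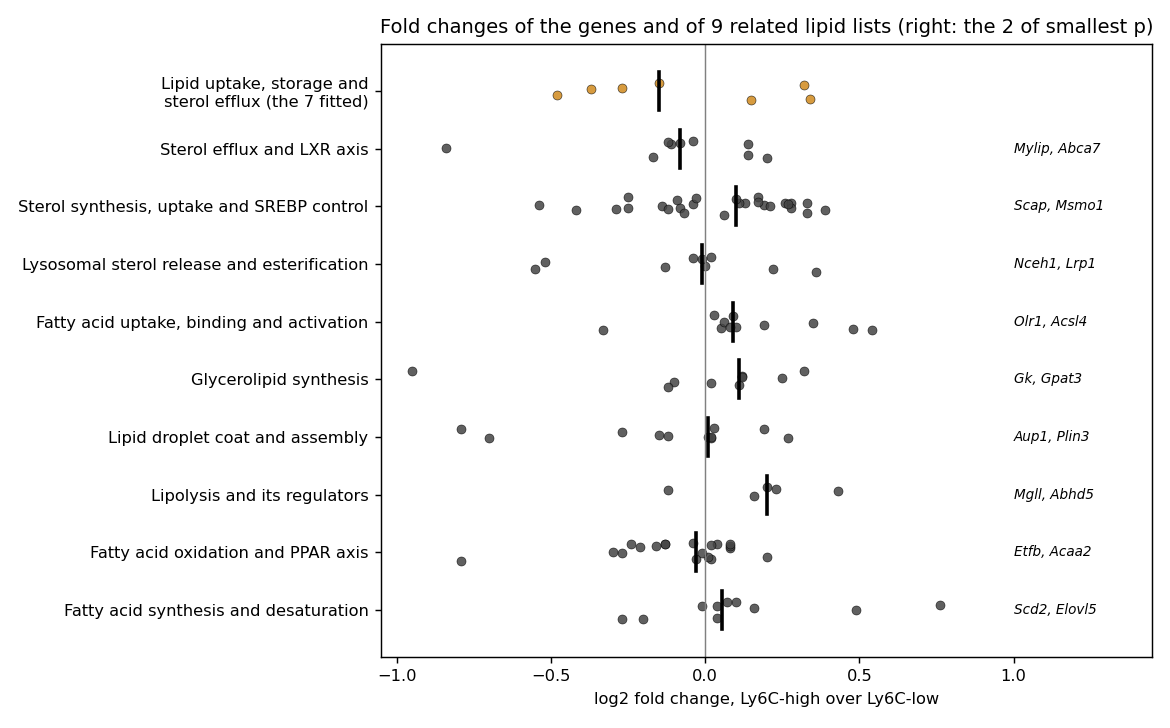
Log2 fold change, Ly6C-high over Ly6C-low (horizontal axis), of the 7 fitted genes (orange) and of the tested genes of 9 related lists (grey points), with the median of each as a bar. Named at the right are the 2 genes of smallest p among those of each list at 5 CPM or more. Medians of the 9 lists lay between -0.08 and 0.20, and Mylip, at -0.84, lay farthest left of the sterol efflux list.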

How the data were processed

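Per the series' design text and the labels' protocols, mRNA was captured on oligo-dT beads, made into dUTP-marked libraries (Kapa kit) and read single-end. The authors deposited kallisto output on GRCm39, per the submitters' processing notes, with version, index and strand setting not given in the sources used here. The deposited files hold estimated counts, which are not whole, and TPM per transcript, per the file headers. The counts summed to between 17192372 and 20973623 per library. Lengths were used for length-scaled TPM only.

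Transcripts were assigned to genes through GENCODE M21 (build GRCm38, for names, chromosomes and transcript types); 99.04% matched, and the rest were left out. Estimated counts were summed per gene and rounded. edgeR 4.0.16 in R 4.3.3 (filterByExpr, TMM, robust quasi-likelihood test, group as the term) was fitted on 11406 genes with Benjamini-Hochberg adjustment at 0.05. The standard error is the size of the log2 fold change over the root of F. limma 3.58.1 and DESeq2 1.42.0 gave alternatives, with a replicate block, other scaling and filters, length-scaled TPM and each library left out. Libraries of a group differed far beyond sampling noise (chi-square per gene 14.3 to 48.2). Checked on counts simulated from these 6 libraries (11406 genes, 200 of them changed, 5 runs), edgeR called 37% of genes changed 1.5-fold, 64.4% changed 2-fold and 91.2% changed 4-fold, and 10.3% of its calls were false. Reads of Slc27a2 and the antisense Gm26697 cannot be told apart without known strand.

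Members and lists were chosen with earlier results of these data known. Named were all members, Ly6c1 and Ly6c2, from each pathway list the 2 genes of smallest p at 5 CPM or more, for each fitted member the most alike gene at 5 CPM or more, and the most abundant gene of each marker list. Nr1h2, Nr1h3, Slc27a3 and its family, Agpat3, G0s2, Ppard, Elovl7 and the genes at 0 were named after their values were seen. So were Ccr2, F13a1, Cx3cr1 and Adgre1 of the monocyte and macrophage list. The same holds for Mcpt8, Cpa3, Prss34, Ms4a2, Gata2 and Cd200r3 of the basophil and mast cell list.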

Additional observations from a re-analysis of the deposited data

How the results depend on the processing

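The signs of all 7 fitted members and all 18 named pathway genes held under every alternative run. Genes past the threshold numbered 4, but 61 with the replicate number as a block, 8 with library size alone, 439 without a filter on low counts, 126 with DESeq2 and 2 with length-scaled TPM, and between 2 and 22 with 1 library left out. The count of members, 0, was 1 with the block (Abcg1), 1 with library size alone (Abcg1), 2 without a filter and 2 with DESeq2 (Abcg1 and Pnpla2 both times), and between 0 and 1 with 1 library left out. The count of pathway genes, 0, was 2 without a filter (Mylip and Msmo1) and 1 with DESeq2 (Mylip), and between 0 and 1 with 1 library left out. Library size alone, which moved the median of all genes by -0.11, gave log2 fold changes of -0.58 for Abcg1, 0.05 for Dgat1 and -0.48 for Pnpla2. The cause of the other differences was not tested.

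The replicate numbers were not taken as pairs: the correlation of same-numbered libraries' deviations was 0.237, -0.037 and 0.239 for replicates 1, 2 and 3, and not every library was closest to its own number. Depth limits Cd36 and Slc27a2. With the block 5 of the 43 tested markers were called, where 61 of all 11406 genes tested were.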
